A study of Mus musculus with 14 samples.

Results

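Cytochrome P450 genes were taken as every gene whose symbol has the form Cyp, number, letters, number, without Cyp26a1, Cyp26b1 and the pseudogenes marked -ps. Cyp51 has no such symbol and was not among them. Of 35171 gene rows in the bulk tables, 92 met this rule, and so did 92 of the 28692 genes of the single-cell library. The names differ in 1 place: Cyp2c23 in the bulk tables is Cyp2c44, a synonym in RefSeq, in the single-cell list.

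RNA was measured in mouse liver, in 13 bulk libraries and 1 single-cell library. The treated stellate cells (3 libraries, strain label Balbc) were plated for 5 h in 10% serum and then given 10 µM UDP-glucose for 24 h in 0.1% serum. Their untreated controls (3 libraries, Balbc) were cultured the same way, and no sort is described for either cultured group. Quiescent, unplated stellate cells (4 libraries) came from C57BL/6J mice labelled LratCre+, TdTom+ and were sorted for vitamin A and for the TdTom reporter, whose recombination is driven by the Lrat promoter. Whole uninjured liver (3 libraries) carries the same strain label, and the single-cell library came from normal liver of a C57BL/6 mouse. The summed level of 15 stellate markers was 10224 to 11667 TPM (transcripts per 1000000, scaled for transcript length) in UDP-glucose cultures, 12404 to 12996 TPM in control cultures, 70653 to 78777 TPM in quiescent cells and 83.3 to 197 TPM in whole liver.

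P450 enzymes are haem proteins that insert an oxygen atom into lipids, hormones, drugs and toxicants, most of them in the membrane of the endoplasmic reticulum with electrons from the reductase Por, and a few in mitochondria with electrons from ferredoxin. Hepatocytes carry the drug-metabolising subfamilies and the enzymes that turn cholesterol into bile acids, and are known to express many of them in zones along the sinusoid. Stellate cells store vitamin A in the sinusoid wall and turn into myofibroblasts in injury and on culture plastic.

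The promoter windows of 4 members are printed because their levels stood at opposite ends of the data. Cyp20a1 was the highest member in every stellate library and Cyp2e1 the highest in every liver library, while the neighbours Cyp1a1 and Cyp1a2 were seen almost wholly in cultured cells and in liver. The windows run 5′ to 3′ on the gene's strand, from 250 bases before to 50 bases after the start in RefSeq on GRCm38.p6. Cyp20a1 lies at chr1:60343050-60343349 on the plus strand, Cyp2e1 at chr7:140763569-140763868 on the plus strand, Cyp1a1 at chr9:57697363-57697662 on the plus strand and Cyp1a2 at chr9:57683606-57683905 on the minus strand. Capitals mark GCGTG, the core bound by the Ah receptor with its partner ARNT, and TATAA, the core of a TATA box, each searched on both strands, where TATAA and its reverse complement may overlap.
Cyp20a1: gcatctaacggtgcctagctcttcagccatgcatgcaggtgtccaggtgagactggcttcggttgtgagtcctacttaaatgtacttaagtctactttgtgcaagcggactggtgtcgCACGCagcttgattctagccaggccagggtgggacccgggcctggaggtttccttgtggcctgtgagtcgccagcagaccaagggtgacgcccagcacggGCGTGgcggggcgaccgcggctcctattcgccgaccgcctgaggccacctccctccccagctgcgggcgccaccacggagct
Cyp2e1: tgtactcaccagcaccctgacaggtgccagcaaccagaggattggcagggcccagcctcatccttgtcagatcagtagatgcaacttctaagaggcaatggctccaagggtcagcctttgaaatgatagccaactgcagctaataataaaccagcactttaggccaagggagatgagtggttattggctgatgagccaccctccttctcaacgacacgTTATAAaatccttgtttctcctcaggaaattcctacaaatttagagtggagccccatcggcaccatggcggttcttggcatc
Cyp1a1: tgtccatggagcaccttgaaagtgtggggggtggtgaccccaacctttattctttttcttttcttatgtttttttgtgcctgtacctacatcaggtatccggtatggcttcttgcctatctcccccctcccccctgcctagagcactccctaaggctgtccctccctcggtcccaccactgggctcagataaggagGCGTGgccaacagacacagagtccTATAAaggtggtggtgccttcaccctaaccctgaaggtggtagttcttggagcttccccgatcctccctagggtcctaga
Cyp1a2: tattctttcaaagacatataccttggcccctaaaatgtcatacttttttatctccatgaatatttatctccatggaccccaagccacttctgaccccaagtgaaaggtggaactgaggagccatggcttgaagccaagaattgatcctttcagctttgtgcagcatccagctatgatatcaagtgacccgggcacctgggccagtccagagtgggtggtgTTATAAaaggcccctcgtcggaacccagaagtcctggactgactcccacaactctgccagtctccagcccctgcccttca

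The Cyp20a1 window held GCGTG at -32 and, on the opposite strand, at -132, and no TATAA. The Cyp1a1 window held GCGTG at -54 and TATAA at -30, and the Cyp1a2 and Cyp2e1 windows held TATAA near -30 and no GCGTG. Of the 92 members, 71 had a promoter entry. GCGTG stood in 5 of the 9 matched members that reached 5 TPM in a stellate group (55.6%) and in 3 of the 27 that reached it in liver alone (11.1%), and TATAA stood in 2 of those 9 (22.2%) and in 19 of those 27 (70.4%). Over all 32851 promoter windows the shares were 32.4% for GCGTG and 24.9% for TATAA. GC content had a median of 54.0% in the 9 and 46.7% in the 27, against 52.7% in all windows. These matches describe the letters only.

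Whole liver held far more P450 RNA than stellate cells, and the members that made it up were different. The 92 members summed to 326 ± 9.91 TPM in UDP-glucose cultures (SD, n = 3), 363 ± 15.9 TPM in control cultures (SD, n = 3), 544 ± 21.3 TPM in quiescent cells (SD, n = 4) and 13872 ± 2950 TPM in whole liver (SD, n = 3). In mean level, 16 members reached 1 TPM in UDP-glucose cultures, 15 in control cultures, 16 in quiescent cells and 55 in liver. No library of any group reached 1 TPM for 34 members, and 7 of these were listed at 0 throughout.

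**Figure D1:**
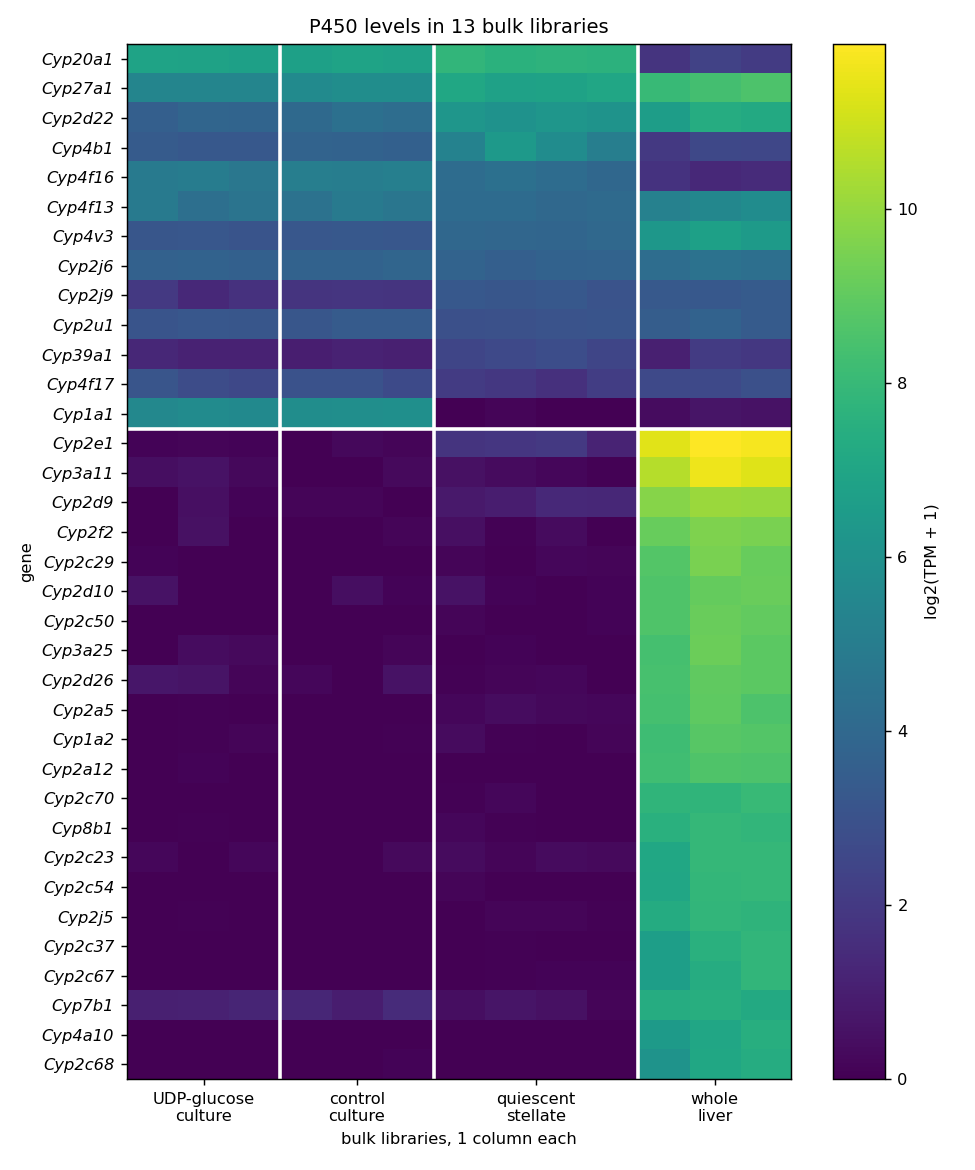
Heat map of log2(TPM + 1) in the 13 bulk libraries, 1 column each, for the 13 members with 5 TPM or more on average in a stellate group (above the white line) and the other members among the 25 highest in liver (below it). Rows below the line are bright in liver columns only, and Cyp1a1 is bright in the 6 cultured columns only.

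The quiescent cells were set against whole liver to ask which P450 genes belong to stellate cells and which to the rest of the liver. Of 92 members, 52 averaged 1 TPM or more over the 7 libraries and were tested with limma on log2(TPM + 1). Calls needed a Benjamini-Hochberg adjusted p under 0.05 and a log2 difference of at least 1 in size. Limma called 45 members either way, against 77.9% of all tested genes, and 50 had an unadjusted p under 0.05, against 92.9%. In quiescent cells 42 members were lower, where 10.9% of all tested genes were lower, and 3 were higher, where 67% of all tested genes were higher. The 2 groups did not overlap for 50 of the 52, against 91.1% of all tested genes. Of the 42 lower members, 36 averaged under 1 TPM in quiescent cells. Those 36 passed the filter only through liver, so their lower calls and separate groups were largely set by it. The median log2 difference was -5.19 over the members and 1.62 over all genes, so a gene of equal TPM in both groups lay below the typical gene. Rescaling by median of ratios brought the median of all genes to -0.03 and called 3 members higher and 50 lower, with 3289 genes higher and 3470 lower in all, against 8466 and 1381 without it.

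The drug-metabolising enzymes carried the largest differences. Cyp3a11, the main inducible enzyme of drug and steroid oxidation in mouse liver, had 0.427, 0.283, 0.161 and 0.0487 TPM in quiescent cells, against 1522, 3071 and 2536 TPM in whole liver. Cyp2e1, which oxidises ethanol and other small molecules, had 2.41, 2.64, 2.91 and 1.25 TPM in quiescent cells, against 2614, 3809 and 3430 TPM in whole liver. The groups were far apart for both, with log2 differences of -10.87 (SE 0.22, adjusted p = 5.36e-12) for Cyp3a11 and -9.97 (SE 0.20, adjusted p = 5.67e-12) for Cyp2e1 by limma. Cyp2d9 (-8.86), Cyp2f2 (-9.19), Cyp2c29 (-8.99), Cyp1a2 (-8.43) and Cyp2a5 (-8.37) were also lower on the log2 scale. Of the members named in this paragraph, only Cyp2e1 and Cyp2d9 averaged 1 TPM or more in quiescent cells. The others passed the filter only through liver, so their calls and separate groups were largely set by it. With 1 TPM added, the size of their differences mainly restates their liver level. Cyp2a12, Cyp3a13, Cyp2b10 and Cyp2c68 were listed at 0 in all 4 quiescent libraries and had 303 to 394, 28.4 to 39.8, 2.25 to 4.97 and 69.1 to 162 TPM in liver. So were 15 of the 42 lower members, for which no fold is given.

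Close relatives in these subfamilies share sequence, which limits how the authors' counting could split them. Of the 31-base words in its annotated transcripts, Cyp2c40 shared 72.6% with other genes, Cyp2c67 67.6%, Cyp2c68 62.0%, Cyp2a5 54.6% and Cyp2d10 50.2%, so their separate values are uncertain. Cyp27a1 and Cyp39a1 shared none, Cyp1a1 5.52% and Cyp20a1 7.26%. Exons of Cyp2f2 and Cyp2u1 overlap those of another gene over 13.5% and 10.5% of their length.

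Few members lay between these extremes. Among the 43 members that averaged 5 TPM or more in liver, 34 stood in quiescent cells below 1% of their liver level (at most 0.283%) and the other 9 stood above 10%, with none between. Of 15 hepatocyte markers, 13 were below 1%, with a median of 0.0248%, and Trf was the highest at 4.75%. The median of the 34 members was 0.0159%. The 9 members above 10% were Cyp27a1, Cyp2d22, Cyp2j6, Cyp2j9, Cyp2r1, Cyp2u1, Cyp4f13, Cyp4f17 and Cyp4v3. Fewer cells of a type and less RNA per cell cannot be told apart in such bulk values. Mitochondrial genes took 2.80% to 5.66% of the TPM in the stellate libraries and 18.5% to 22.4% in liver, and the part of this in the differences was not tested.

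The enzymes that make bile acids from cholesterol divided. Cyp7a1, the rate-limiting enzyme of the classical pathway, had 0 to 0.116 TPM in quiescent cells, against 13.8, 23.6 and 23.4 TPM in liver (log2 difference -4.29, SE 0.19, limma adjusted p = 1.66e-09). Cyp8b1, which sets the share of cholic acid, had 0 to 0.156 TPM in quiescent cells, against 184, 239 and 223 TPM in liver. Cyp7b1, the oxysterol 7α-hydroxylase, had 0.372, 0.572, 0.466 and 0.106 TPM in quiescent cells, against 165, 177 and 151 TPM in liver. All 3 were called lower, and none of their groups overlapped. All 3 averaged under 1 TPM in quiescent cells and passed the filter only through liver, so these calls and separate groups were largely set by it.

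Cyp27a1, the mitochondrial sterol 27-hydroxylase that opens the other pathway, was far less apart. It had 137, 111, 113 and 130 TPM in quiescent cells, against 256, 325 and 374 TPM in liver, a log2 difference of -1.36 (SE 0.15, limma adjusted p = 4.63e-06). Cyp39a1, a 24-hydroxycholesterol 7α-hydroxylase, had 4.57, 5.18, 6.09 and 4.52 TPM in quiescent cells, against 1.06, 3.26 and 2.81 TPM in liver. These groups did not overlap, yet the log2 difference of 0.91 (SE 0.23) missed the size limit, and median-of-ratios and quantile scaling turned it to -0.56 and -0.69. Cyp46a1, the cholesterol 24-hydroxylase known from neurons, had 1.47 to 2.46 TPM in quiescent cells and 0.887 to 1.73 TPM in liver, which overlap. Its log2 difference of 0.34 (SE 0.19) was not called, and both scalings turned that to -0.84 and -1.03, where the value after quantile scaling was a call lower than liver (limma adjusted p = 0.000119).

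Only Cyp20a1, Cyp4b1 and Cyp4f16 were called higher in quiescent cells under the settings used for the main result. Cyp20a1, a P450 with no established substrate (chr1:60343323-60388060, plus strand), had 223, 193, 206 and 197 TPM in quiescent cells, against 2.48, 4.16 and 3.18 TPM in liver. The log2 difference was 5.60 (SE 0.14, limma adjusted p = 2.66e-11), and it made this gene the highest member of every quiescent library. Cyp4f16, of a family that ω-hydroxylates fatty acids and eicosanoids (chr17:32536558-32551798, plus strand), had 17.6, 19.9, 17.7 and 14.8 TPM in quiescent cells, against 2.30, 1.61 and 1.72 TPM in liver. Its log2 difference of 2.68 (SE 0.14, limma adjusted p = 6.52e-09) became 0.97 after quantile scaling, where the call was lost, and 26.8% of its 31-base words occur in other genes.

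Cyp4b1, which hydroxylates fatty acids and activates some toxicants (chr4:115624725-115647723, minus strand), had 37.2, 83.4, 53.4 and 32.8 TPM in quiescent cells, against 2.94, 4.91 and 4.72 TPM in liver. The log2 difference was 3.27 (SE 0.29, limma adjusted p = 6.12e-07) with replicate 2 the highest, and 3.01 without that library. The summed level of 13 sinusoidal endothelial markers in the same 4 libraries was 594, 1276, 767 and 425 TPM, in the same order of libraries as Cyp4b1, against 51.5, 126 and 91.0 TPM in liver. Cyp4b1 made up 6.26 to 7.71 TPM per 100 TPM of those markers in quiescent cells and 3.88 to 5.71 in liver. All 13 endothelial markers averaged 1 TPM or more in quiescent cells. Their part in the Cyp4b1 difference was not tested.

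**Figure D2:**
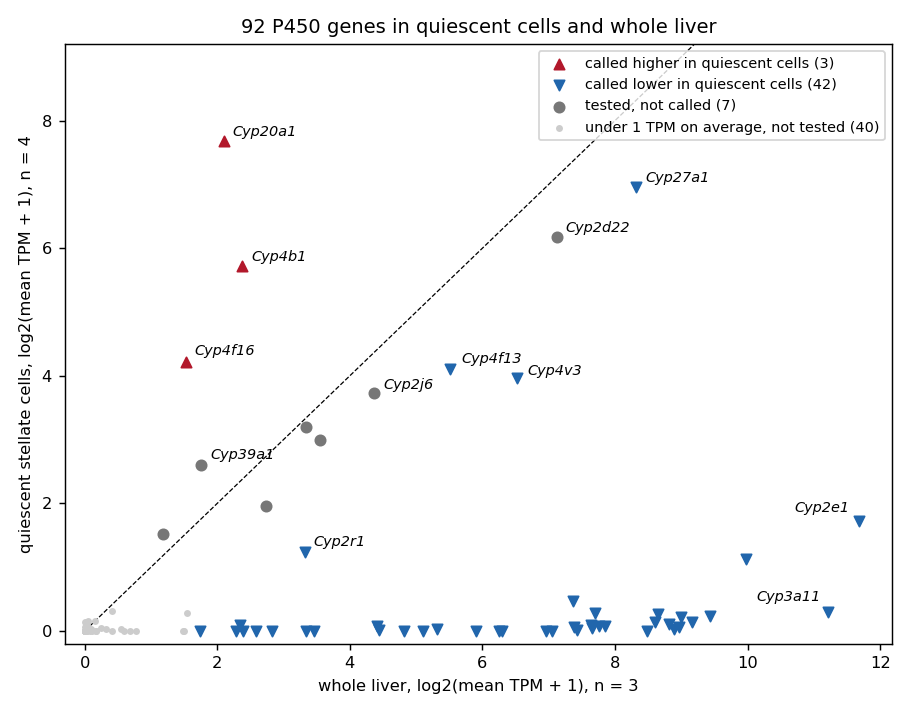
Each point is 1 of the 92 members, with the log2(mean TPM + 1) of 4 quiescent libraries on the vertical axis and of 3 liver libraries on the horizontal axis; the dashed line marks equal values. The 3 members called higher lie above the line and most of the 42 called lower lie along the bottom.

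Further members of the Cyp4 and Cyp2 families stayed present in quiescent cells. Cyp4v3, a fatty acid ω-hydroxylase whose human counterpart is mutated in Bietti crystalline dystrophy, had 13.9 to 15.4 TPM in quiescent cells and 78.1 to 106 TPM in liver (log2 difference -2.55, SE 0.13, limma adjusted p = 4.77e-09). Cyp4f13 had 15.2 to 16.9 TPM in quiescent cells and 36.2 to 54.1 TPM in liver, and was called lower at -1.39. The arachidonic acid epoxygenases of the Cyp2j group were split: Cyp2j6 had 11.3 to 12.8 TPM in quiescent cells and 17.9 to 21.4 TPM in liver, while Cyp2j5 had at most 0.121 TPM in quiescent cells and 160 to 229 TPM in liver. Cyp2j6 (-0.63), Cyp2j9 (-0.13), Cyp2u1 (-0.55), Cyp4f17 (-0.77) and Cyp2d22 (-0.91) were not called. Cyp2d22 had 76.0, 65.0, 74.9 and 68.6 TPM in quiescent cells, against 96.1, 165 and 151 TPM in liver, and these groups did not overlap. It supplied most of the 72.6 ± 5.37 TPM of the 8 Cyp2d members in quiescent cells (SD, n = 4), against 2154 ± 347 TPM in liver (SD, n = 3). The peroxisome proliferator targets Cyp4a10 and Cyp4a14 were listed at 0 in every quiescent library and had 88.7 to 176 and 12.4 to 90.5 TPM in liver.

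The members of hormone and vitamin pathways listed here were mostly low, and Cyp2r1 in liver was the highest of them. Cyp2r1, a vitamin D 25-hydroxylase, had 1.04 to 1.66 TPM in quiescent cells and 7.52 to 10.6 TPM in liver and was called lower at -2.07. Cyp27b1, the vitamin D 1α-hydroxylase, had 0.444 to 1.71 TPM in control cultures and at most 0.263 TPM in quiescent cells, and Cyp24a1, the catabolic enzyme, reached at most 0.0787 TPM in any library. Cyp26c1, a retinoic acid hydroxylase, reached at most 0.111 TPM, in a quiescent library. Of the steroid hormone enzymes, Cyp11a1, Cyp11b1 and Cyp19a1 stayed under 0.3 TPM everywhere, while Cyp17a1 had 1.07 to 2.43 TPM and Cyp21a1 0.961 to 3.13 TPM in liver. Cyp2s1 stayed under 0.5 TPM in every library.

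The partners and regulators of P450 enzymes did not follow one direction. Of 12 electron carriers and haem enzymes listed, 11 were tested in quiescent cells against liver, of which 2 were called higher and 4 lower. Of all tested genes, 67% were higher and 10.9% lower. Por, the reductase that feeds the microsomal P450 enzymes, had 124 ± 10.7 TPM in quiescent cells (SD, n = 4) and 76.3 ± 23.4 TPM in liver (SD, n = 3), and was not called. Of 14 transcriptional regulators 12 were tested, with 4 higher and 7 lower, against the same shares of all genes. Among the 7 lower, Nr1i2, Nr1i3, Nr0b2, Nr5a2 and Hnf4a averaged under 1 TPM in quiescent cells and passed the filter only through liver. Tiparp, among the higher, had 0.672 TPM in liver and passed only through quiescent cells. Those calls were largely set by the filter. Hnf4a, a master regulator of hepatocyte genes, had 0.0725 ± 0.0534 TPM in quiescent cells and 102 ± 12.9 TPM in liver. The xenobiotic receptors Nr1i2 and Nr1i3 were listed at 0 in all quiescent libraries, with 27.4 ± 5.06 and 103 ± 38.9 TPM in liver. The bile acid receptor Nr1h4 was higher in quiescent cells, with 366 ± 32.8 TPM against 56.5 ± 10.4 TPM in liver (log2 difference 2.69, SE 0.15, limma adjusted p = 1.06e-08).

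Cultured control cells were set against quiescent cells to see how P450 genes stood after 24 h on plastic. Strain, sort and table differ along with culture and cannot be told apart from it. Of 15 members tested, limma called 7 either way, against 31.8% of all genes, and 14 had an unadjusted p under 0.05, against 73.3%. It called 1 higher in culture, against 18.6% of all genes, and 6 lower, against 13.2%. The groups did not overlap for 14 of the 15, against 70% of all genes. The median log2 difference was -0.71 over the members and 0.26 over all genes. Median-of-ratios rescaling gave 1529 genes higher and 2050 lower in all, against 2338 and 1652 without it, and called 1 member higher and 7 lower, the addition being Cyp20a1.

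The 1 member that rose was Cyp1a1, the aryl hydrocarbon hydroxylase that is the classical target of the Ah receptor. It had 56.1, 57.2 and 60.7 TPM in control cultures, against 0, 0.108, 0 and 0 TPM in quiescent cells. Whole liver had 0.317, 0.573 and 0.477 TPM, so the 3 control cultures stood above every unplated library. The log2 difference of 5.85 (SE 0.12, limma adjusted p = 1.7e-09) depends on the pseudocount, being 8.92 with 0.1 TPM and 3.65 with 5 TPM added. Cyp1a1 passed the filter of 1 TPM only through the control cultures, so its higher call and separate groups were largely set by the filter. Of other Ah receptor targets, Cyp1b1, Cyp1a2 and Ahrr were low and, under the filter of 1 TPM, were not tested. Cyp1b1 had 0.516 to 0.633 TPM in control cultures and 0.0641 to 0.195 TPM in quiescent cells, higher in culture with no overlap. Cyp1a2 had at most 0.0540 TPM in control cultures and 0 to 0.261 TPM in quiescent cells, and Ahrr, the repressor of the receptor, had 0.159 to 0.532 TPM in control cultures and 0.0369 to 0.835 TPM in quiescent cells, both with overlap. Tiparp, a target and repressor of the same receptor, had 9.95, 12.5 and 11.6 TPM in control cultures, against 56.8, 63.2, 54.5 and 64.1 TPM in quiescent cells (log2 difference -2.30, SE 0.10, limma adjusted p = 1.6e-07). The receptor itself, Ahr, had 3.79 to 6.07 TPM in control cultures and 6.08 to 8.99 TPM in quiescent cells, and was not called.

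Limma called 6 members lower in culture. The filter of 1 TPM over the libraries compared admits such a member only where quiescent cells hold its RNA, so that presence is no result. Cyp2e1 passed the filter only through quiescent cells, with means of 2.30 TPM there and 0.104 TPM in control cultures. Cyp27a1 had 51.2, 56.0 and 56.1 TPM in control cultures, against 137, 111, 113 and 130 TPM in quiescent cells, a log2 difference of -1.15 (SE 0.09, limma adjusted p = 4.27e-06). Cyp2d22 had 15.8, 20.2 and 18.3 TPM in control cultures, against 65.0 to 76.0 TPM in quiescent cells (log2 difference -1.92, SE 0.10, limma adjusted p = 4.12e-07). Neither pair of groups came near to touching. Cyp2j9 fell by 1.39, Cyp39a1 by 1.54 and Cyp2e1 by 1.55 on the log2 scale, from levels of at most 8.76 TPM, and these calls were lost with a pseudocount of 5 TPM. Cyp4b1 fell by 1.92, with 11.5 to 12.6 TPM in control cultures and 32.8 to 83.4 TPM in quiescent cells, and the endothelial marker sum was 51.0 to 61.6 TPM in control cultures and 425 to 1276 TPM in quiescent cells. Egfl7 alone made 46.8 to 58.1 TPM of the sum in control cultures, where Stab2 was listed at 0 and Clec4g had 0.114 to 0.418 TPM, against 96.7 to 282 TPM in quiescent cells. Cyp4b1 stood at 18.6 to 23.9 TPM per 100 TPM of the list in control cultures and 6.26 to 7.71 in quiescent cells. Since the list is mostly Egfl7 in control cultures, these ratios do not share a basis and are not compared. The hepatocyte marker sum that stands beside Cyp2e1 was 261 to 307 TPM in control cultures, of which Ass1 made 228 to 244 TPM, and 457 to 576 TPM in quiescent cells, of which Trf made 397 to 516 TPM. The hepatocyte markers went both ways. Alb had 0.120 to 0.560 TPM in control cultures and 4.52 to 11.2 TPM in quiescent cells, and Trf was lower in culture too. Ass1 was higher in culture, against 40.5 to 63.9 TPM in quiescent cells. So were Ahsg, with 2.62 to 3.35 TPM in control cultures and 1.07 to 2.14 TPM in quiescent cells, and Pck1, with 1.08 to 2.93 and 0.0851 to 0.247 TPM. The part of either marker list in these differences was not tested.

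Some members did not pass. Cyp20a1 had 109, 120 and 112 TPM in control cultures, against 193 to 223 TPM in quiescent cells. The log2 difference of -0.84 (SE 0.07, limma adjusted p = 7.25e-06) missed the size limit, and Cyp20a1 was still the highest member in each culture. Cyp4f16 had 31.7 to 34.1 TPM in control cultures and 14.8 to 19.9 TPM in quiescent cells, a log2 difference of 0.88 (SE 0.10), and Cyp4f17 and Cyp4f13 stood at 0.93 and 0.57. Cyp2j6 had 12.3 to 13.6 TPM in control cultures and 11.3 to 12.8 TPM in quiescent cells, at 0.05, and both other scalings turned that to -0.20 and -0.14. Of 11 partner genes tested 4 were called higher and none lower, against 18.6% and 13.2% of all genes. Among the 4 was Hmox1, the haem-degrading oxygenase, with 1942 ± 51.3 TPM in control cultures (SD, n = 3) and 54.5 ± 11.5 TPM in quiescent cells (SD, n = 4). Of 7 regulators tested 3 were called lower, namely Tiparp, Rxra and Nr1h4, and none higher, against the same shares.

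**Figure D3:**
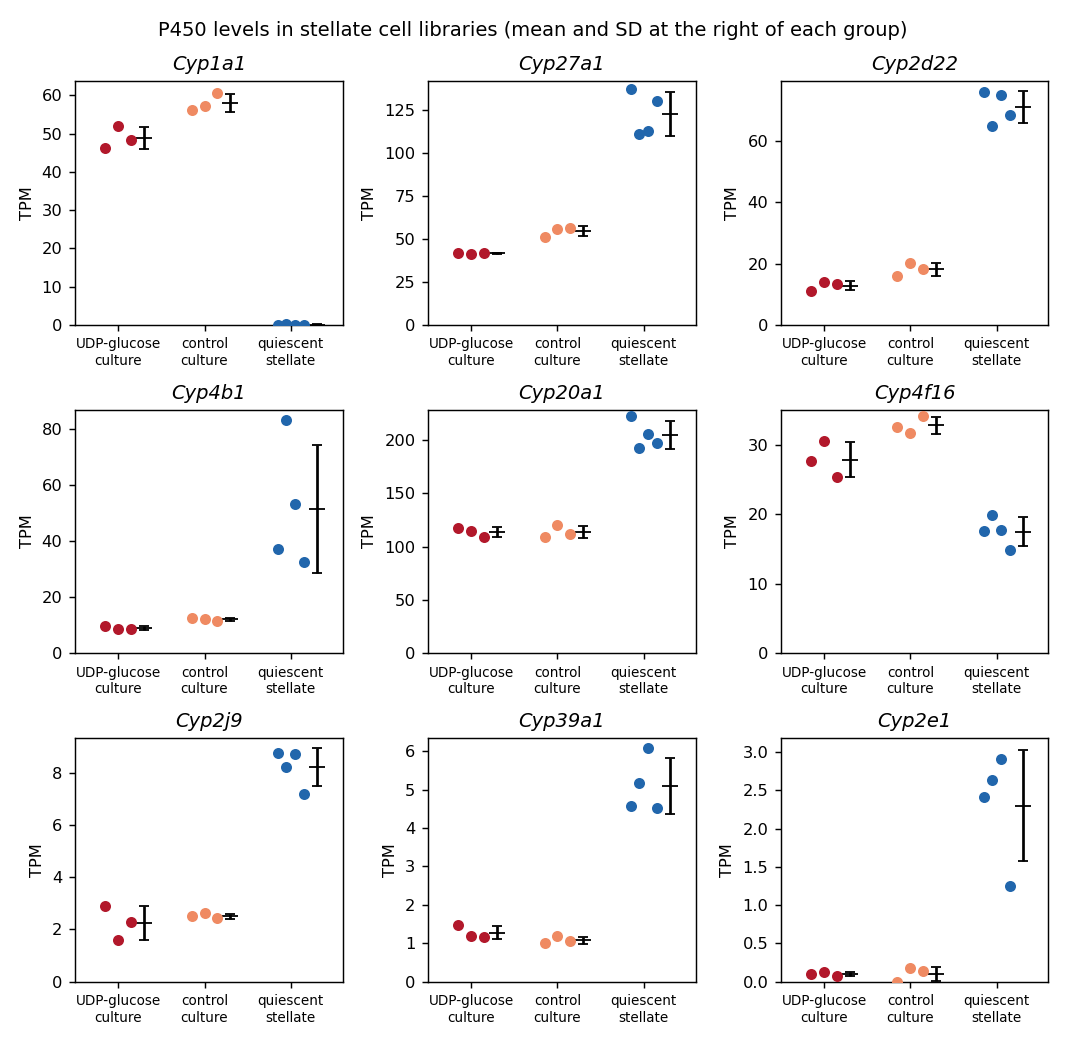
TPM of 9 members in the 3 UDP-glucose, 3 control culture and 4 quiescent libraries, 1 point each, with the mean and SD at the right of each group; each panel has its own axis from 0. Cyp1a1 is near 0 in quiescent cells and at 46.3 to 60.7 TPM in all 6 cultures.

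UDP-glucose, the ligand of the receptor P2Y14, was tested on cultured cells. Of 16 members tested, none was called with limma at an adjusted p under 0.05, where 0.609% of all genes were called. At an unadjusted p under 0.05 there were 5 members, against 10% of all genes, and for the same 5 the 3 UDP-glucose libraries did not overlap the 3 controls, against 16.3% of all genes. All 5 lay lower with UDP-glucose. Over all genes 52 were higher (0.428%) and 22 lower (0.181%), and with median-of-ratios rescaling 63 were higher and 10 lower.

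Cyp27a1 had the smallest p. It had 41.5, 41.3 and 42.0 TPM with UDP-glucose, against 51.2, 56.0 and 56.1 TPM in control cultures, a log2 difference of -0.38 with a 95% interval of -0.54 to -0.22 (limma adjusted p = 0.0783). Cyp2d22 had 11.0, 13.9 and 13.3 TPM with UDP-glucose, against 15.8, 20.2 and 18.3 TPM in control cultures (-0.48, interval -0.79 to -0.17, limma adjusted p = 0.257). The libraries are separate in both genes, but the differences did not pass the correction. Cyp4b1 (-0.38, interval -0.63 to -0.12), Cyp1a1 (-0.24, interval -0.42 to -0.07) and Cyp4f16 (-0.23, interval -0.44 to -0.02) made up the 5.

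Cyp1a1 had 46.3, 51.9 and 48.4 TPM with UDP-glucose, against 56.1, 57.2 and 60.7 TPM in control cultures, and all 6 cultures stood far above the unplated libraries. Cyp20a1 had 118, 115 and 109 TPM with UDP-glucose, against 109, 120 and 112 TPM in control cultures, and the interval on its log2 difference ran from -0.14 to 0.16. Cyp2c55 had the only difference above 0.2, at 0.51, with 1.68, 1.42 and 1.31 TPM with UDP-glucose, against 0.614, 0.200 and 1.66 TPM in control cultures, which overlap. Control replicate 3 stood with the treated libraries, and did so too for Apoa1 and Apoc3 of the hepatocyte list. Apoa1 had 13.0, 13.8 and 14.4 TPM with UDP-glucose, against 1.78, 1.70 and 15.4 TPM in control cultures. Apoc3 had 4.49, 3.03 and 6.12 TPM, against 0, 0 and 4.22 TPM. Markers such as Ahsg and Serpina1c of the same list did not show this. Ahsg had 2.46, 3.10 and 2.66 TPM with UDP-glucose, against 3.35, 2.62 and 2.69 TPM in control cultures. Serpina1c had 0.210, 0.420 and 0.790 TPM, against 1.76, 0 and 0 TPM. The part of such markers in the Cyp2c55 difference was not tested. None of the 11 partner genes and none of the 7 regulators tested was called, where 0.609% of all genes were called. These groups share the control cultures with the comparison above, so the 2 sets of differences are not independent.

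The single-cell library placed the members in cell classes. It held 12101368 UMIs (unique molecules), and 4808 cells passed the filters on genes and mitochondrial RNA. Clusters were made without the members and named from marker lists, doublets were not removed, and with 1 library there is no test; the 95% intervals given are exact and cover counting error only. Of the 92 members 67 had a UMI. Hepatocyte-like cells (491) held 67.8% of all member UMIs, and members made up 1.09% of their RNA against 0.0135% to 0.108% in the other classes. Of 45 members with at least 10 UMIs, 35 were highest in hepatocyte-like cells, among them Cyp3a11 with 1922 CPM (UMIs per 1000000), Cyp2e1 with 1546 CPM and Cyp2d9 with 805 CPM.

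Free RNA in a droplet library can give UMIs in cells that do not express a gene, so 15 hepatocyte markers were read beside the members. For 26 hepatocyte members the median level in other named classes of at least 50 cells was 0.519% to 2.29% of the hepatocyte-like level, and for the 15 markers it was 0.951% to 2.48%. Cyp27a1 stood above that range in several classes. It had 152 CPM (133 to 174) in hepatocyte-like cells, 79.4 CPM (53.6 to 113) in dendritic and monocyte-like cells, 63.4 CPM (49.6 to 79.8) in stellate-like cells and 10.9 CPM (7.49 to 15.3) in sinusoidal endothelial-like cells. Thinned to 1000 UMIs a cell it had 146, 73.4, 50.3 and 12.3 CPM in the same classes.

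Cyp20a1 was highest in stellate-like cells. It had 194 CPM (169 to 221) there, 45.2 CPM (37.9 to 53.4) in sinusoidal endothelial-like cells, 18.7 CPM in T-like cells and 13.9 CPM (8.50 to 21.5) in hepatocyte-like cells. A UMI was seen in 42.4% of 340 stellate-like cells, with a median depth of 3154 UMIs, and in 4.66% of 343 T-like cells, with a median depth of 2477 UMIs. After thinning each cell to 1000 UMIs the shares were 18.6% and 2.06%. Second among classes of at least 50 cells was an unnamed cluster led by Col14a1, Vipr1 and Cd5l. Stellate-like cells stood above hepatocyte-like cells, but this library holds no whole-liver value to set beside the bulk order.

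Cyp4b1 was highest in sinusoidal endothelial-like cells, at 602 CPM (575 to 630), and in a large unnamed cluster led by Fabp4, Cdh13 and Wnt2, at 586 CPM (545 to 629). Stellate-like cells had 123 CPM (104 to 145) and T-like cells 139 CPM (116 to 165). The stellate-like level was thus not above that of T-like cells. Per 100 CPM of the 13 sinusoidal endothelial markers, Cyp4b1 had 2.42 CPM in sinusoidal endothelial-like cells, 2.32 in stellate-like cells and 2.64 in T-like cells, and 1.46 to 2.64 over the 13 classes of at least 50 cells. A UMI of Cyp4b1 was seen in 60.2% of sinusoidal endothelial-like cells, 23.5% of stellate-like cells and 21.9% of T-like cells, at median depths of 1760, 3154 and 2477 UMIs. With 1000 UMIs a cell the shares were 41.9%, 10.9% and 9.41%. In bulk, control cultures still had 11.5 to 12.6 TPM of Cyp4b1 with nearly all endothelial markers close to 0, and which cells carried it there was not tested.

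The other members highest outside hepatocyte-like cells differed in depth, with 601 UMIs for Cyp2d22, 140 for Cyp4f16 and 117 for Cyp4f18. Cyp4f18, a leukotriene B4 hydroxylase of leukocytes, had 103 CPM (75.0 to 139) in B-like cells, 60.9 CPM (38.6 to 91.4) in dendritic and monocyte-like cells and 1.10 CPM (0.0279 to 6.14) in T-like cells. Cyp4f16 had 42.4 CPM (24.2 to 68.8) in dendritic and monocyte-like cells and 14.1 CPM (8.05 to 22.9) in stellate-like cells. Cyp2d22 was spread, with 92.6 CPM (76.8 to 111) in the unnamed cluster led by Fabp4, Cdh13 and Wnt2, its highest among classes of at least 50 cells, 78.8 CPM (69.1 to 89.4) in sinusoidal endothelial-like, 71.6 CPM (58.5 to 86.9) in hepatocyte-like and 45.8 CPM in stellate-like cells. Cyp2j6, Cyp2j9, Cyp2ab1 and Cyp4x1, with 153, 30, 10 and 10 UMIs in all, had their highest levels in classes that held at most 2 of those UMIs and are given no order, although Cyp2j6 had 22.9 CPM in stellate-like and 29.2 CPM in hepatocyte-like cells.

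Cyp1a1, near 0 in unplated bulk cells, was rare here too. It had 21 UMIs in all, 18 of them in 6 vascular endothelial-like cells (66.5 CPM, 39.4 to 105), and 0 in stellate-like and hepatocyte-like cells. Of those 6 cells, 5 also had a UMI of a dendritic and monocyte marker, 1 of a neutrophil marker and 1 of a basophil and mast cell marker, whose part in the value was not tested. A count of 0 allows up to 0.882% of the 340 stellate-like cells to carry a UMI. Thinned to 1000 UMIs the vascular level was 18.3 CPM, and with at least 1000 UMIs per barcode or at the lower clustering resolution no cluster took the name vascular endothelial-like.

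**Figure D4:**
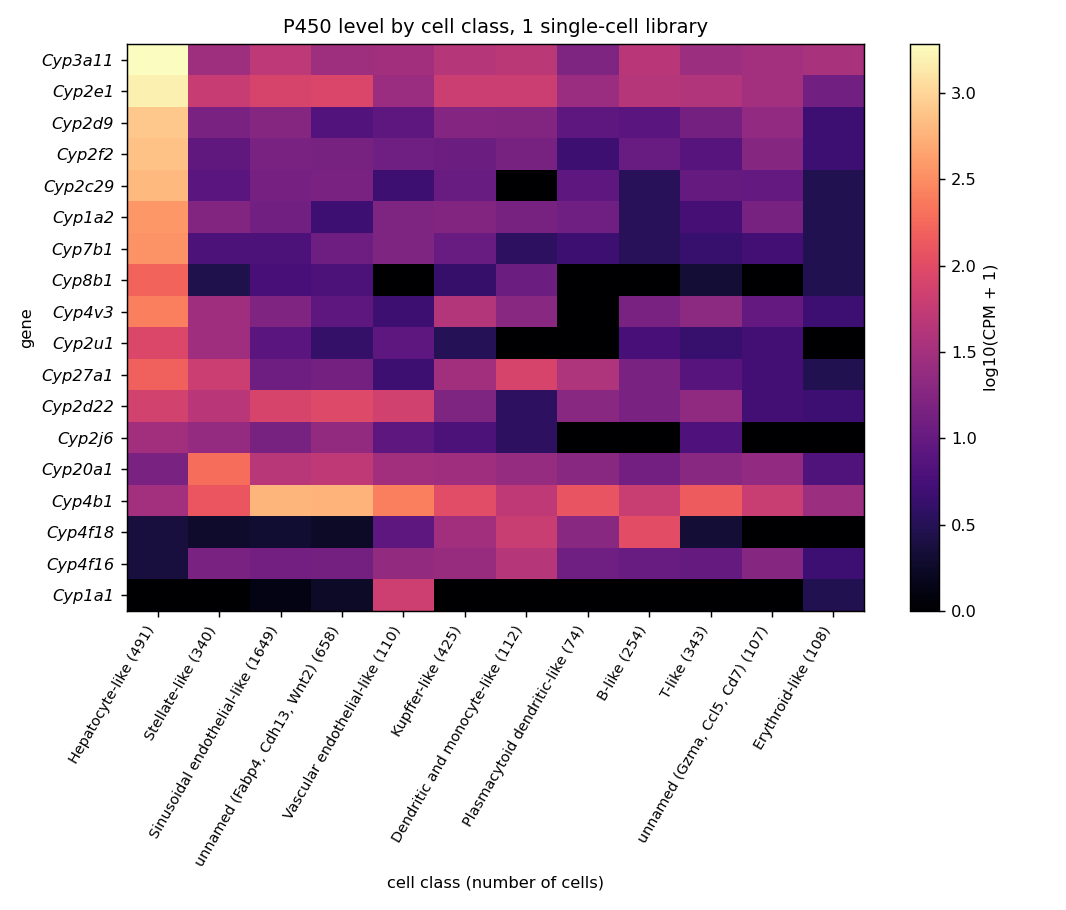
log10(CPM + 1) of 18 members (rows) in 12 cell classes of the single-cell library (columns, number of cells in brackets), without replicates. Most rows are brightest in hepatocyte-like cells, Cyp20a1 in stellate-like cells, and Cyp4b1 in sinusoidal endothelial-like cells and the cluster led by Fabp4, Cdh13 and Wnt2.

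Hepatocyte-like cells were split by 8 central and 8 portal marker genes outside the family, chosen after the data had been seen. More central than portal UMIs were found in 66 cells (median 1456 UMIs), more portal in 418 cells (median 1916 UMIs) and equal numbers in 7; the split is a range, not a type. Of 33 members with at least 50 UMIs, 13 had at least 2 times the portal level in the central cells, and 2 had at least 2 times the central level in the portal cells. The share of all genes past these limits was not worked out, so the counts are not read as a trait of P450 genes. The 2 sets of cells also differed in Alb, with 6967 CPM in central and 18509 CPM in portal cells.

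Cyp2a5, the coumarin 7-hydroxylase, had 1192 CPM (1033 to 1368) in central and 58.9 CPM (46.2 to 73.9) in portal cells. Cyp1a2, an arylamine and caffeine oxidase, had 1530 CPM (1349 to 1728) in central and 209 CPM (185 to 236) in portal cells, and Cyp2e1 had 4512 CPM (4197 to 4845) in central and 1100 CPM (1043 to 1160) in portal cells. These 3 intervals do not overlap. Cyp3a11 had a log2 ratio of central over portal of 1.60, Cyp2c37 of 3.17, Cyp2c29 of 2.24 and Cyp27a1 of 1.29. Close relatives stood nearer to even, at 0.605 for Cyp2d9, 0.0976 for Cyp3a25, 0.191 for Cyp2c70 and -0.516 for Cyp2a12.

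The portal side was led by Cyp2f2, which oxidises naphthalene and other aromatics, with 11.9 CPM (1.44 to 42.8, 2 UMIs) in central and 828 CPM (779 to 880) in portal cells. Cyp2u1, a fatty acid hydroxylase, had 23.7 CPM (6.46 to 60.7) in central and 96.2 CPM (79.9 to 115) in portal cells. Members near even included Cyp7b1, with 350 and 356 CPM in central and portal cells, Cyp2j5, with 213 and 218 CPM, and Cyp3a25, with 356 and 332 CPM. Of the 491 hepatocyte-like cells, 59 had a UMI of both Cyp2e1 and Cyp2f2, 149 of Cyp2e1 alone, 138 of Cyp2f2 alone and 145 of neither.

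**Figure D5:**
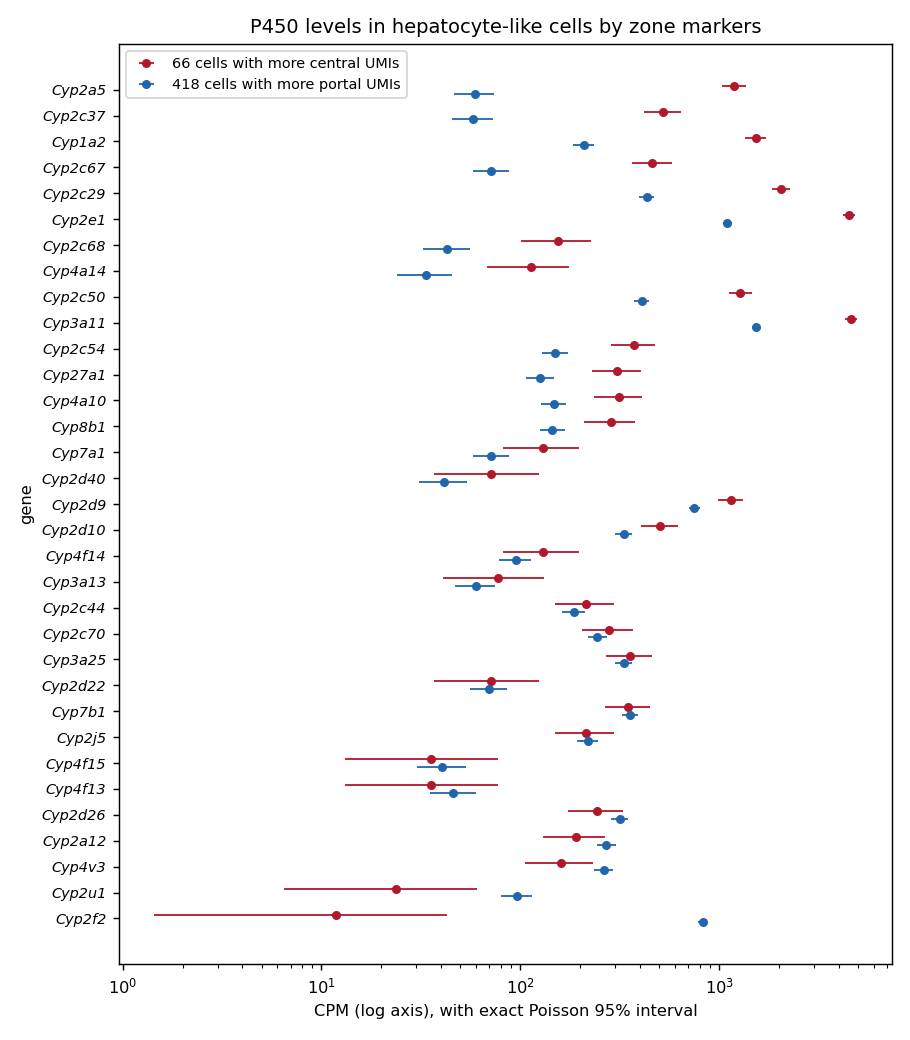
CPM on a log axis with exact Poisson 95% intervals for 33 members in hepatocyte-like cells with more central marker UMIs (66 cells) and with more portal marker UMIs (418 cells), in the order of their ratio. Cyp2a5 and Cyp2c37 stand at the central end and Cyp2f2 and Cyp2u1 at the portal end.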

How the data were processed

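RNA was measured in 13 bulk libraries and 1 single-cell library. The deposited bulk values are TPM per gene. Quiescent cells and liver have a table each, and the cultured libraries share another. The submitters' processing notes name bcl2fastq 2.19, kallisto 0.44.0, Cell Ranger and DESeq2 and the builds GRCm38 and mm10, with no role for each. TPM keeps no depth, so no count test was possible and the bulk depth is unknown. Rows whose names had turned into dates (26) were left out. The deposited single-cell matrix holds counts of UMIs per gene and barcode.

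Bulk groups were compared with limma 3.58.1 (R 4.3.3, trend) on log2(TPM + 1), two-sided, for genes averaging 1 TPM or more over the libraries compared, with Benjamini-Hochberg adjustment over all genes tested. The 2 comparisons between tables also needed a log2 difference of at least 1 in size. The procedure was tested on simulated data. A fold change taken after adding 1 TPM understates the change of low genes. Whether libraries came from separate animals or cultures is not in the labels; the p-values cover the spread among libraries, which could be technical. Replicate numbers were given in accession order.

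Barcodes with at least 500 UMIs, 200 genes and at most 20% mitochondrial UMIs were kept. They were clustered with scanpy 1.11.5 (2000 variable genes without the members, 30 components, 15 neighbours, Leiden resolution 1). A cluster was named when at least 3 markers of a list were among its 50 leading genes, 2 times or more the number of any other list. In addition, no other list could hold more of the first few leading genes, and the first gene could not be a marker of another list only. A cluster of low depth also needed a marker of its list among those first few. The cluster led by Fabp4, Cdh13 and Wnt2 had 6 sinusoidal and 2 vascular endothelial markers among the 50, and stayed unnamed by these further conditions. This rule was set after the data had been seen. Levels are summed UMIs per 1000000. Poisson and binomial intervals are at 95%.

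The members and lists were chosen with earlier results of these data known. Members named are those of at least 5 TPM in a stellate group, the 25 highest in liver, those called with UDP-glucose, the 5 largest rises and falls in culture, those with at least 10 UMIs that were highest outside hepatocyte-like cells, and fixed examples of each role. Promoter windows are from RefSeq, GRCm38.p6; gene positions and transcripts are from GENCODE on GRCm38. Alternatives were the pseudocount, the filter, the scaling, each library left out, the UMI minimum, the clustering resolution and thinning.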

Additional observations from a re-analysis of the deposited data

Results flagged for a closer look

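In the 4 quiescent libraries, 14 named members with at least 1 TPM in a library were checked for a library far from the others, against Dixon's 95% limit for 4 samples. None passed it, Cyp4b1 with its highest value in replicate 2 included.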

How the results depend on the processing

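Against whole liver, quiescent cells had 2 to 4 members called higher and 33 to 50 called lower over all alternatives, which were 2 pseudocounts, no filter and a stricter one, 2 scalings and each library left out. In control culture against quiescent cells, 2 members were higher with a pseudocount of 0.1 TPM and 1 to 2 when a library was left out, the second being Cyp4f17 (log2 difference 1.13 with that pseudocount, 1.04 without control replicate 3, and past the limit of 1 without quiescent replicate 4); 3 were lower with a pseudocount of 5 TPM, against 6. No alternative called a member with UDP-glucose, where 0 were called in each. Differences that turned sign were of members without a call in the main result: against liver, Cyp39a1 (-0.56 by median of ratios, -0.69 by quantiles) and Cyp46a1 (-0.84 and -1.03, the second a call lower than liver, limma adjusted p = 0.000119), in culture Cyp2j6 (-0.20 and -0.14), and with UDP-glucose Cyp46a1 and Cyp4f17 (0.04 each by quantiles). Without a single library, differences with UDP-glucose ran from -0.02 to 0.05 for Cyp20a1, -0.26 to 0.03 for Cyp2j9, -0.17 to 0.10 for Cyp46a1, -0.22 to 0.02 for Cyp4f13, -0.21 to 0.08 for Cyp4f17 and -0.26 to 0.01 for Cyp7b1. Both scalings brought Cyp2d22, Cyp2j6, Cyp2j9, Cyp2u1 and Cyp4f17 to a call lower than liver. Cyp39a1 was called higher than in liver at 1.20 with a pseudocount of 0.1 TPM, 1.11 without liver replicate 2 and 1.03 without liver replicate 3, and Cyp2d22 lower at -1.14 without liver replicate 1. In the single-cell library, thinning to 1000 UMIs gave 249 CPM for Cyp20a1 in stellate-like cells, 18.3 CPM for Cyp1a1 in vascular endothelial-like cells and 1277 CPM for Cyp2e1 in hepatocyte-like cells, against 194, 66.5 and 1546 CPM. Where not stated, the cause was not tested. No paired analysis was possible because the labels give the groups no shared replicate numbers. Bulk depth is unknown, and members with few UMIs cannot be ordered among classes.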

Other observations

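Cyp11a1, the enzyme that opens steroid hormone synthesis, was chosen after its values were seen, since it had under 10 UMIs. All 9 of its UMIs fell in 3 dendritic and monocyte-like cells. Each of the 3 cells carried markers from a list of 5 basophil and mast cell genes, and they were the only 3 cells of that class with at least 3 UMIs of that list. In bulk libraries Cyp11a1 reached at most 0.0949 TPM.

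Cyp2c55 and Cyp2c65 were seen in cultured cells, also named after their values were seen. Cyp2c65 had 0.835, 0.471 and 0.621 TPM with UDP-glucose and 0.191, 0.0693 and 0.486 TPM in control cultures, against 0 in all 4 quiescent libraries and at most 0.0472 TPM in liver. Its highest control library was replicate 3, as for Cyp2c55 and the hepatocyte markers Apoa1 and Apoc3. Other hepatocyte markers, such as Ahsg and Serpina1c, were highest in control replicate 1. Cyp2c65 was under the filter of 1 TPM and was not tested. The pattern was not particular to these Cyp2c genes, as Cyp3a13 and Cyp4f14 were also at 0 in all 4 quiescent libraries. Cyp3a13 had 0.862, 0.556 and 0.606 TPM with UDP-glucose and 0.0804, 0.0437 and 1.02 TPM in control cultures. Cyp4f14 had 0.983, 0.660 and 0.731 TPM, against 0.0551, 0.239 and 0.652 TPM. Unlike Cyp2c65, both were far higher in liver.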
